A study of Mus musculus with 7 samples.

Results

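Rab GTPases and Vps (vacuolar protein sorting) proteins direct the traffic of membrane through endosomes, and their genes were examined here in chromatin accessibility data of mouse regulatory T cells (Treg cells). Members were the protein-coding genes whose symbols begin with Rab or Vps followed directly by a digit, 69 Rab genes and 35 Vps genes in the RefSeq gene table of GRCm38, the assembly that mm10 names. A peak belonged to a member when it overlapped the gene, or when it lay within 100 kb with that gene the nearest protein-coding gene. Of 50213 deposited peaks, 188 belonged to Rab genes and 111 to Vps genes. The rule used no measured value.

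ATAC-seq, a sequencing assay of the DNA that a transposase can reach, was run on Treg cells sorted from the spleen of mixed bone marrow chimeras. All hosts received CD45.1+ marrow together with CD45.2+ test marrow at a 1:1 ratio. The test marrow came from Foxp3Cre mice (wild type, WT, 4 libraries) or from Foxp3CreOpa1fl/fl mice (Opa1 KO, 3 libraries), in which Cre is driven by Foxp3 and so acts in cells that express that gene. Opa1 is a GTPase of the inner mitochondrial membrane. Sorted cells were CD45.2+CD45.1-CD4+Foxp3-YFP+, so the sorted cells of both genotypes carried the Foxp3-Cre allele and shared their hosts with CD45.1+ cells. No age is stated, nor which Opa1 exons are deleted.

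A Rab protein is a molecular switch that binds a membrane when it carries GTP and recruits effectors there, and each organelle carries its own set. Rab5 marks early endosomes, Rab7 late endosomes and lysosomes, and Rab8, Rab10 and Rab11 vesicles that return cargo to the cell surface. Vps proteins were first found in yeast and form complexes: retromer and retriever recycle receptors from endosomes, HOPS and CORVET tether endosomes and lysosomes, ESCRT sorts ubiquitin-marked cargo into multivesicular bodies, and GARP returns vesicles to the Golgi. In T cells such traffic recycles the T cell receptor and costimulatory receptors. The study asks about crosstalk of mitochondria with lysosomes in Treg cells.

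RefSeq start-site windows of GRCm38.p6, from 250 bases before to 50 after a transcript start, were found for 56 Rab genes and 22 Vps genes. Those of 45 Rab and 21 Vps genes touched a peak. The 7 windows printed here lie under the start-site peaks of the genes on which the results below turn, 5′ to 3′ on the gene's strand. Capitals mark 4 motifs searched on both strands: the E-box CACGTG, the cAMP response element TGACGTCA, the GC box GGGCGG and an ETS factor site, CCGGAAGT.
Vps26c, chr16:94526580-94526879, minus strand: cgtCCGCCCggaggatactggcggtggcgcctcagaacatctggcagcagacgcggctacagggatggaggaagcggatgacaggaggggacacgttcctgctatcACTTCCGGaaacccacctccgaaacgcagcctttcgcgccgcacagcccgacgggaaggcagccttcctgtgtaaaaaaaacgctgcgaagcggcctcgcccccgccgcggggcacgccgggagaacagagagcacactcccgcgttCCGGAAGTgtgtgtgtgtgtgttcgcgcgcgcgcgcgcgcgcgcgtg
Vps26a, chr10:62486756-62487055, minus strand: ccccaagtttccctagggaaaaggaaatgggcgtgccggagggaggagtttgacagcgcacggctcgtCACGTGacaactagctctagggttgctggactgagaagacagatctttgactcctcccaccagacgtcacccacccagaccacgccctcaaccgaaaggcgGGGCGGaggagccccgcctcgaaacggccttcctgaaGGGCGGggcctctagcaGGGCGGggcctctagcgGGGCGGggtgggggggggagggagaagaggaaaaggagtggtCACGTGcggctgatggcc
Vps29, chr5:122354078-122354377, plus strand: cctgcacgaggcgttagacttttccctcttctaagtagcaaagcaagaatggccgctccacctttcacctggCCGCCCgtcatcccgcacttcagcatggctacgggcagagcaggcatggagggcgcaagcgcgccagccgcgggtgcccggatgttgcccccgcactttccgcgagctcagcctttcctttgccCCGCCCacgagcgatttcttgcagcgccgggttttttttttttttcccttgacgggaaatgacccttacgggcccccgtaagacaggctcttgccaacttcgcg
Rab10, chr12:3309920-3310219, minus strand: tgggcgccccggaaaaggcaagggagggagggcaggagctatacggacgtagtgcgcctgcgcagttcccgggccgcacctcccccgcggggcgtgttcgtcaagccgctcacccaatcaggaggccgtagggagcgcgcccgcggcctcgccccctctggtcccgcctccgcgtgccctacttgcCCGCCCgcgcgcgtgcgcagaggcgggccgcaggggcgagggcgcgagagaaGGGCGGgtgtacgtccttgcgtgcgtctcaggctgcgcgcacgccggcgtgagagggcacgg
Rab8a, chr8:72160950-72161249, plus strand: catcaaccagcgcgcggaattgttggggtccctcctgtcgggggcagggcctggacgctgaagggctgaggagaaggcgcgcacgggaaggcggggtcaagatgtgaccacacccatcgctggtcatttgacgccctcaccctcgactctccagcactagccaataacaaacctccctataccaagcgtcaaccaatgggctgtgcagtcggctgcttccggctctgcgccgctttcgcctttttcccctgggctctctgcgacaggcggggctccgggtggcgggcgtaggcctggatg
Rab5a, chr17:53478984-53479283, plus strand: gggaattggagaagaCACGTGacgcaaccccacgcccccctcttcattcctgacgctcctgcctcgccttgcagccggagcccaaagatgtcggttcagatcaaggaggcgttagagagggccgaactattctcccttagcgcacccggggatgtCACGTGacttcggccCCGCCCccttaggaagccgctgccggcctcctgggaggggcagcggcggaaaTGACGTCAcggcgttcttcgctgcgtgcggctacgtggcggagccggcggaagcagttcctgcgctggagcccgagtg
Rab5c, chr11:100738166-100738465, minus strand: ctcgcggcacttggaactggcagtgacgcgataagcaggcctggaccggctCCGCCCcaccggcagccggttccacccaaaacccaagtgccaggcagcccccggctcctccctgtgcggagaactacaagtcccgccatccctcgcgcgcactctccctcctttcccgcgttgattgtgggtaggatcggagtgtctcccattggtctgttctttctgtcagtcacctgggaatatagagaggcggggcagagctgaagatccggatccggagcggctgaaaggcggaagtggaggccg

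The E-box, the core of the element bound by the lysosomal regulator TFEB and by several related factors, occurred 2 times in the Vps26a window printed and 2 times in that of Rab5a. It was present in 15.7% of 51 Rab windows and in 20.8% of 24 Vps windows under a peak, against 11.0% of all 9649 such windows of protein-coding genes. The GC box was present in 82.4% of those Rab windows and 62.5% of those Vps windows, against 69.4% in all. The ETS site was present in 5.88% and 20.8%, against 9.97%, and occurred 2 times in the Vps26c window. The 5 Vps windows with an ETS site were those of Vps26c, Vps53 and alternative starts of Vps52. The 5 with an E-box were those of Vps16, Vps33a, Vps50 and overlapping windows of Vps26a. These shares count windows, so a gene with several start sites counts more than once. The cAMP response element was present in 3.92% of the Rab windows and in none of the Vps windows, against 3.73%. Matching sites overlapped each other at 5 places in all the member windows. A match is a string of letters in these windows and no measure of binding.

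Library totals in peaks ran from 1534394 to 2134586 counts in WT and from 1658436 to 3384325 in KO, with KO replicate 1 the deepest. Among pairs of libraries of the same genotype, WT replicates 2 and 3 were the least different (chi-square on halved counts, p = 0.111 over 36418 peaks). They were also the WT libraries with the lowest totals (1534394 and 1706750 counts). As a precaution they were averaged and counted as 1 sample in each mean ± SD, which therefore has n = 3 for both genotypes, while the test kept the 7 libraries. The only tested Opa1 peak, at an end of that gene (chromosome 16, 29579139 to 29579524), had 36.8, 33.8, 37.3 and 37.9 CPM in WT and 33.3, 29.1 and 42.6 in KO, with a log2 fold change of -0.06 (SE 0.19, edgeR adjusted p = 0.955). It does not check the genotype labels, since the position of the deletion is not known. All 5 Treg marker genes (Foxp3, Il2ra, Ctla4, Ikzf2 and Tnfrsf18) had peaks, with summed levels of 1495 to 1599 CPM (counts relative to the scaled total of each library) in WT and 1530 to 1633 in KO, as had all 5 general T cell markers (457 to 534 and 482 to 559 CPM). Of 5 myeloid markers, Lyz2 and Csf1r had no peak, and the list summed to 56.2 to 63.0 CPM in WT and 43.6 to 54.5 in KO, so the groups did not overlap. None of the 5 tested peaks of that list had groups without overlap by itself. The CD8 and natural killer list had peaks at 4 of 5 genes (258 to 304 CPM in WT, 283 to 306 in KO), without Ncr1. The erythroid list had peaks at 4 of 5 genes (39.7 to 63.5 CPM in WT, 55.6 to 74.6 in KO), without Hbb-bs. Their part in the results below was not tested. In pooled cells, fewer cells with an open site and a less open site in each cell cannot be told apart.

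Most members had open chromatin in these cells. Of 69 Rab genes 61 had at least 1 peak, and of 35 Vps genes 34. These counts were not compared with those of other genes. The 8 Rab genes without a peak were Rab3b, Rab3d, Rab9b, Rab17, Rab25, Rab27b, Rab34 and Rab40b, and the Vps gene without one was Vps11. Rab25 and Rab17 are known mainly from epithelial cells, and Rab3b and Rab3d from secretory cells and neurons. Rab3a and Rab3c did have peaks (1 and 7), and why the genes listed had none was not tested. The median member of each family had 2 peaks. Rab11fip4, which encodes a Rab11 effector, had the highest number among Rab-named genes (18), and Vps13d, a large lipid transfer protein, among Vps genes (14). Peaks within 1 kb of either end of their gene made up 32.4% of the Rab peaks and 35.1% of the Vps peaks, against 22.9% of all peaks. All peaks include those with no gene within 100 kb, which the member peaks cannot include. A filter on low counts left 146 Rab peaks at 59 genes and 86 Vps peaks at 33 genes for testing.

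Levels per kb of peak were compared at the strongest tested gene-end peak of each gene (51 Rab and 31 Vps genes). The median was 75.8 CPM per kb for Rab genes (range 10.4 to 367) and 54.8 for Vps genes (14.3 to 211). The highest was Rab30, a Golgi GTPase, with 344 ± 60.8 CPM per kb in WT and 396 ± 51.6 in KO (SD, n = 3 each). Rab1a, a GTPase of transport from the endoplasmic reticulum to the Golgi, followed with 343 ± 22.8 and 355 ± 24.5, which lies within the spread of Rab30. Next came Rab8a, with 282 ± 7.49 CPM per kb in WT and 336 ± 21.2 in KO, and Rab5b, with 278 ± 16.5 and 320 ± 3.40, and these neighbours did not differ beyond their spread in WT. The highest Vps gene was Vps50, a subunit of a tether of recycling endosomes, with 218 ± 17.9 and 204 ± 25.8 CPM per kb, at a peak that also touched Hepacam2. At the lower end were Rab15 (11.0 ± 1.58 in WT, 10.2 ± 2.02 in KO) and Vps53 (12.0 ± 5.40 and 17.0 ± 7.92).

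The comparison of KO with WT asks how loss of Opa1 in Foxp3-expressing cells altered accessibility at these genes. In each family 1 peak changed: a peak downstream of Rab10 fell, and a peak inside Vps26c rose. A call is an adjusted p under 0.05 in edgeR's quasi-likelihood test with Benjamini-Hochberg adjustment over all 38041 tested peaks, which gave 33 calls, or 0.0867% of them. By direction, 18 calls were higher (0.0473%) and 15 lower (0.0394%), but 14 were higher and 23 lower when scaled by library totals alone, and 12 and 23 with loess offsets. The number of calls fell to 18 without WT replicate 1, 15 without KO replicate 1 and 16 without KO replicate 3. One call among 146 Rab peaks and 1 among 86 Vps peaks is too few to set a share of calls in either family against that background.

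Rab10 is a GTPase that carries vesicles from recycling compartments and the Golgi to the plasma membrane. Its called peak (chromosome 12, 3235143 to 3235988) lay 11440 bp beyond the end of the gene and 73981 bp from its start. It had 112, 107, 95.1 and 121 CPM in WT replicates 1 to 4 and 62.5, 85.9 and 70.1 in KO replicates 1 to 3. Each KO library was below each WT library. The mean was 111 ± 10.1 CPM in WT and 72.9 ± 11.9 in KO (SD, n = 3 each), a log2 fold change of -0.60 (SE 0.12, edgeR adjusted p = 0.0127). The call was lost without WT replicate 1 (adjusted p = 0.0853), WT replicate 4 (0.0973), KO replicate 1 (0.255) or KO replicate 3 (0.117), at log2 fold changes of -0.59, -0.55, -0.48 and -0.58.

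No other tested Rab10 peak was called. The start-site peak (3309726 to 3310299) had 126, 133, 98.2 and 122 CPM in WT and 140, 174 and 118 in KO. The groups overlapped, and the log2 fold change was 0.26 (SE 0.11, edgeR adjusted p = 0.436). The peaks at 3264514, 3279158 and 3283008 within the gene and at 3322207 upstream of it had 0 to 18.4 CPM in single libraries. Their log2 fold changes were 0.43, 0.07, 0.30 and 0.05, with edgeR adjusted p from 0.822 to 0.987. A further 3 weak peaks in the gene did not pass the count filter.

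Vps26c is a subunit of retriever, the complex that recycles integrins and other receptors independently of retromer. Its called peak (chromosome 16, 94510036 to 94510367) lay within the gene, 16262 bp from its start. WT replicates 1 to 4 had 4, 6, 4 and 10 counts there (1.94, 4.06, 2.41 and 5.27 CPM), and KO replicates 1 to 3 had 86, 22 and 28 counts (26.5, 13.9 and 15.1 CPM). Each KO library was above each WT library, and KO replicate 1 was the highest. The mean rose from 3.48 ± 1.68 CPM in WT to 18.5 ± 6.95 in KO (SD, n = 3 each), a log2 fold change of 2.47 (SE 0.39, edgeR adjusted p = 0.000143). Without KO replicate 1 the log2 fold change was 2.08 and the call was lost (adjusted p = 0.0913).

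The start-site peak of Vps26c (94526357 to 94527179), whose window is printed above, had 102, 121, 105 and 104 CPM in WT and 124, 128 and 88.5 in KO. KO replicate 3 was the lowest library and KO replicate 2 the highest, so the groups overlapped (log2 fold change 0.08, SE 0.11, edgeR adjusted p = 0.888). Chromosome 16, where Opa1 also lies, held 13 of the 33 calls over all peaks, 0.821% of its 1583 tested peaks against 0.0549% elsewhere. Whether the Vps26c difference shares a source with those calls was not tested.

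**Figure D1:**
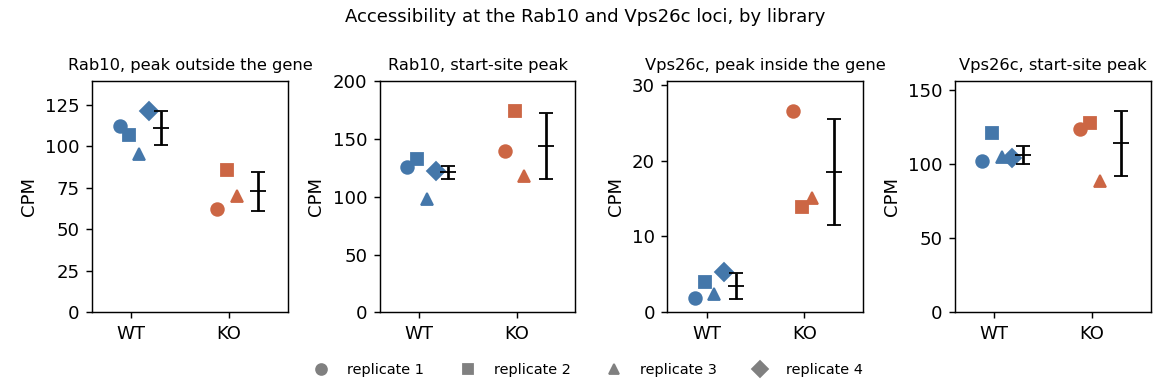
CPM at the called peak and the start-site peak of Rab10 and of Vps26c, with 1 point per library (marker shape gives the replicate number) and the mean ± SD (n = 3, WT replicates 2 and 3 averaged) as black bars. All KO libraries lie below all WT libraries at the Rab10 peak outside the gene and above them at the Vps26c peak inside the gene, while the groups overlap at both start sites.

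**Figure D2:**
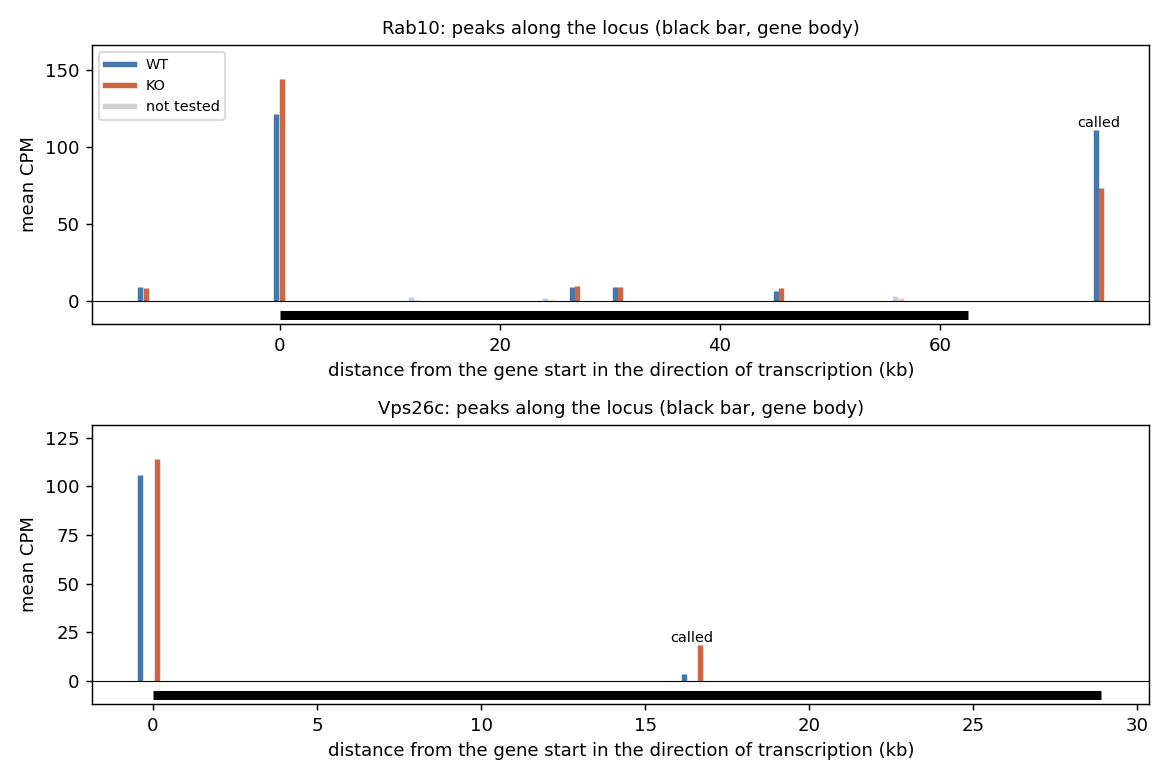
Mean CPM in WT and KO at each peak of Rab10 and Vps26c, against the distance in kb from the gene start, with the gene body as a black bar and peaks not tested drawn pale. The strong Rab10 peaks are the start site and the called site beyond the end of the gene, and Vps26c has a strong start-site peak and the called peak inside the gene.

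The remaining Rab peaks gave no call. Of all 146 tested, 76 had a log2 fold change above 0 and 70 below, with a median of 0.013 (0.053 without KO replicate 3), against -0.001 over all tested peaks. An unadjusted p under 0.05 was reached by 20 Rab peaks (13.7%), 10 higher and 10 lower, against 9.47% of all tested peaks. The groups did not overlap at 19 (13.0%), 9 with KO higher and 10 with KO lower, against 9.36% of all tested peaks (4.85% higher and 4.51% lower). These shares describe peaks that share loci and genes, and no test was run on them.

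Differences between positions were not tested. At 56 gene-end peaks 37 log2 fold changes were above 0 (66.1%, median 0.064), and of 10 with an unadjusted p under 0.05, 9 were higher in KO. Over all 10468 tested gene-end peaks 56.4% were above 0 (median 0.035), and 613 of 909 with such a p were higher. The groups did not overlap at 7 Rab gene-end peaks (12.5%), 6 of them higher in KO, against 9.09% of all gene-end peaks. Of 68 Rab peaks farther inside genes 31 were above 0 (median -0.038), which is 45.6% against 48.5% of all peaks there (median -0.013). Of 22 outside genes 8 were above 0 (median -0.127), or 36.4% against 45.2% of all (median -0.043). The groups did not overlap at 8 Rab peaks inside genes (11.8%, against 9.27% of all) and at 4 outside (18.2%, against 9.49%). In the gene-end and inside positions edgeR, DESeq2 and limma-voom each called 0 Rab peaks, and outside genes each called the Rab10 peak alone.

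Among the Rab GTPases of early endosomes, 9 of 15 tested peaks were above 0 (median 0.062) and none was called. Of 3 with an unadjusted p under 0.05, 2 were higher, at Rab5b and Rab5c, and 1 was lower, at Rab31. Here and in the roles below, the share of all tested peaks with such a p was 9.47%. The role classes were chosen with earlier results known, and no test was run on any class as a whole. Rab5a, Rab5b and Rab5c encode 3 forms of the GTPase that drives fusion of early endosomes. The Rab5c start-site peak (chromosome 11, 100738058 to 100738526) had 63.9, 56.9, 61.4 and 67.4 CPM in WT and 98.0, 79.6 and 70.1 in KO. All KO libraries were above all WT libraries, with a log2 fold change of 0.42 (SE 0.14, edgeR adjusted p = 0.268). The Rab5b start-site peak (chromosome 10, 128696141 to 128696706), which also touched Pmel, had 159, 139, 155 and 165 CPM in WT and 179, 181 and 183 in KO. Its groups did not overlap either, at a log2 fold change of 0.22 (SE 0.09, edgeR adjusted p = 0.43). The Rab5a start-site peak (chromosome 17, 53478759 to 53479780) had 152, 156, 121 and 142 CPM in WT and 137, 141 and 154 in KO, with overlapping groups and a log2 fold change of 0.01. None of the 3 Rab5 peaks passed the test, and whether they differ from each other was not tested. The only peak of Rab31, of the same role, had 24.2, 21.7, 19.3 and 17.9 CPM in WT and 13.2, 13.9 and 15.1 in KO. All KO libraries were below all WT libraries there (log2 fold change -0.57), and it was not called.

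Among Rab GTPases of recycling, 18 of 25 tested peaks were above 0 (median 0.085), and of 5 with an unadjusted p under 0.05, 4 were higher and 1, the called Rab10 peak, lower. Rab8a carries vesicles from the recycling compartment to the cell surface. Its start-site peak (chromosome 8, 72160681 to 72161439) had 214, 204, 212 and 219 CPM in WT and 269, 259 and 237 in KO. Each KO library exceeded each WT library, at a log2 fold change of 0.27 (SE 0.08, edgeR adjusted p = 0.256). Rab11a encodes the GTPase that defines recycling endosomes. Its start-site peak (chromosome 9, 64737592 to 64738172) was weaker, with 12.6, 28.4, 14.5 and 16.9 CPM in WT and 23.7, 15.2 and 24.3 in KO, and the groups overlapped (log2 fold change 0.27, SE 0.27, edgeR adjusted p = 0.818).

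No peak of the late endosome and lysosome Rab GTPases was called, and 0 of 9 tested had an unadjusted p under 0.05 in edgeR. DESeq2 and limma-voom also called 0 of them. Rab7, the GTPase of late endosomes that recruits HOPS and motor proteins, had a start-site peak (chromosome 6, 88045120 to 88045512) with 38.8, 59.6, 37.9 and 49.5 CPM in WT and 45.0, 46.8 and 46.9 in KO. The KO libraries lay inside the WT range. Rab29, which acts at the Golgi and on lysosomes, had 59.6, 71.8, 62.6 and 64.8 CPM in WT and 68.4, 69.5 and 69.0 in KO at its start-site peak (chromosome 1, 131867016 to 131867582), with overlapping groups (log2 fold change 0.10, edgeR adjusted p = 0.884).

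Of 25 tested peaks of ER and Golgi Rab GTPases 14 were above 0 (median 0.029). An unadjusted p under 0.05 was reached by 3, of which 2 were higher, at Rab18 and Rab6a, and 1 lower, at Rab6b. The Rab1a start-site peak (chromosome 11, 20200875 to 20201549) had 214, 252, 234 and 237 CPM in WT and 221, 245 and 252 in KO (log2 fold change 0.03, SE 0.08, edgeR adjusted p = 0.954), so the groups overlapped. Rab6b encodes a Golgi GTPase best known from neurons. A peak 3018 bp outside Rab6b (chromosome 9, 103108399 to 103108649) had 15.0, 10.8, 10.8 and 10.5 CPM in WT and 6.16, 8.85 and 5.39 in KO. Its groups did not overlap, at a log2 fold change of -0.82 (SE 0.38, edgeR adjusted p = 0.476).

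Among Rab GTPases of regulated secretion, 10 of 22 tested peaks were above 0 (median -0.039). Both of those with an unadjusted p under 0.05 were lower, 1 at Rab37 and 1 at Rab27a. Rab37 acts in secretion from granules. A peak within Rab37 (chromosome 11, 115131818 to 115132115), which also touched Cd300lf, an inhibitory receptor gene of myeloid cells, had 4.84, 6.77, 6.02 and 10.5 CPM in WT and 2.46, 2.53 and 1.08 in KO. KO libraries were all below the lowest WT library, at the largest negative log2 fold change among the tested Rab and Vps peaks (-1.74, SE 0.61, edgeR adjusted p = 0.313). This peak had only 8, 4 and 2 counts in KO replicates 1 to 3. The summed level of the myeloid markers was lower in KO too, as given above, though no single tested peak of that list had an unadjusted p under 0.05. Its part in the Rab37 difference was not tested. The strongest tested peak of Rab37 (115153672 to 115154261) had 32.9, 37.9, 28.9 and 55.9 CPM in WT and 40.7, 39.2 and 23.7 in KO, and its groups overlapped. Rab27a, which docks the lytic granules of cytotoxic T cells, had 20.3, 17.6, 16.3 and 24.2 CPM in WT and 21.9, 26.5 and 19.4 in KO at its strongest tested peak (chromosome 9, 73044117 to 73044461), also with overlap (log2 fold change 0.19, edgeR adjusted p = 0.876). Over the 8 tested Rab27a peaks log2 fold changes ran from -1.03 to 0.47, and none was called. At the synaptic vesicle GTPase gene Rab3a, the start-site peak (chromosome 8, 70754365 to 70754823) had 65.9, 66.3, 65.0 and 42.2 CPM in WT and 55.5, 53.7 and 65.8 in KO. Of 9 tested peaks of the other Rab GTPases 2 were above 0 (median -0.13). The 1 with an unadjusted p under 0.05, at Rab20, was lower, and none was called. Among these genes Rab40c, a substrate receptor of ubiquitin ligases, had one of the strongest start-site peaks, with 257 ± 27.2 CPM in WT and 262 ± 4.73 in KO (SD, n = 3 each). The only peak of Rab44 was not tested.

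The rule also took in genes named for a Rab whose products bind or regulate it. Of their 41 tested peaks at 10 genes, 19 were above 0 (median -0.063) and 6 had an unadjusted p under 0.05, 2 higher and 4 lower. Rab3ip (Rabin8) encodes an exchange factor that activates Rab8. Its start-site peak (chromosome 10, 116950211 to 116950930) had 15.5, 35.9, 27.1 and 29.5 CPM in WT and 45.9, 37.3 and 45.3 in KO. All KO libraries were above all WT libraries (log2 fold change 0.70, SE 0.20, edgeR adjusted p = 0.207). Within the same gene, the peak from 116930513 to 116930850 had 35.8, 43.3, 42.8 and 32.1 CPM in WT and 29.0, 27.8 and 25.9 in KO, with all KO libraries below all WT libraries (log2 fold change -0.47, SE 0.20, edgeR adjusted p = 0.434). The strongest Rab3ip peak, from 116913643 to 116914292, had overlapping groups (log2 fold change 0.10). Rab3ip thus held peaks of either sign, as Rab10 did. Of its 8 tested peaks 3 had an unadjusted p under 0.05, the start-site peak higher and the others lower, and none was called.

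Rab11fip1 encodes an effector that links Rab11 to recycling cargo. A peak within it (chromosome 8, 27172042 to 27172400) had 32.0, 25.7, 27.7 and 34.2 CPM in WT and 12.9, 24.0 and 15.1 in KO. All KO libraries were below all WT libraries, at a log2 fold change of -0.84 (SE 0.24, edgeR adjusted p = 0.197). A peak in Rab11fip4 (chromosome 11, 79623092 to 79623408) had 14.5, 11.5, 13.2 and 12.6 CPM in WT and 15.4, 24.0 and 21.6 in KO, with all KO libraries above all WT libraries (log2 fold change 0.61, SE 0.28, edgeR adjusted p = 0.487). A peak 10109 bp from Rab3gap2, a subunit of a Rab3 GTPase-activating complex (chromosome 1, 185193523 to 185193979), had 9.20, 9.48, 13.2 and 12.6 CPM in WT and 5.55, 6.32 and 6.47 in KO. Its groups did not overlap (log2 fold change -0.87, SE 0.39, edgeR adjusted p = 0.462).

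**Figure D3:**
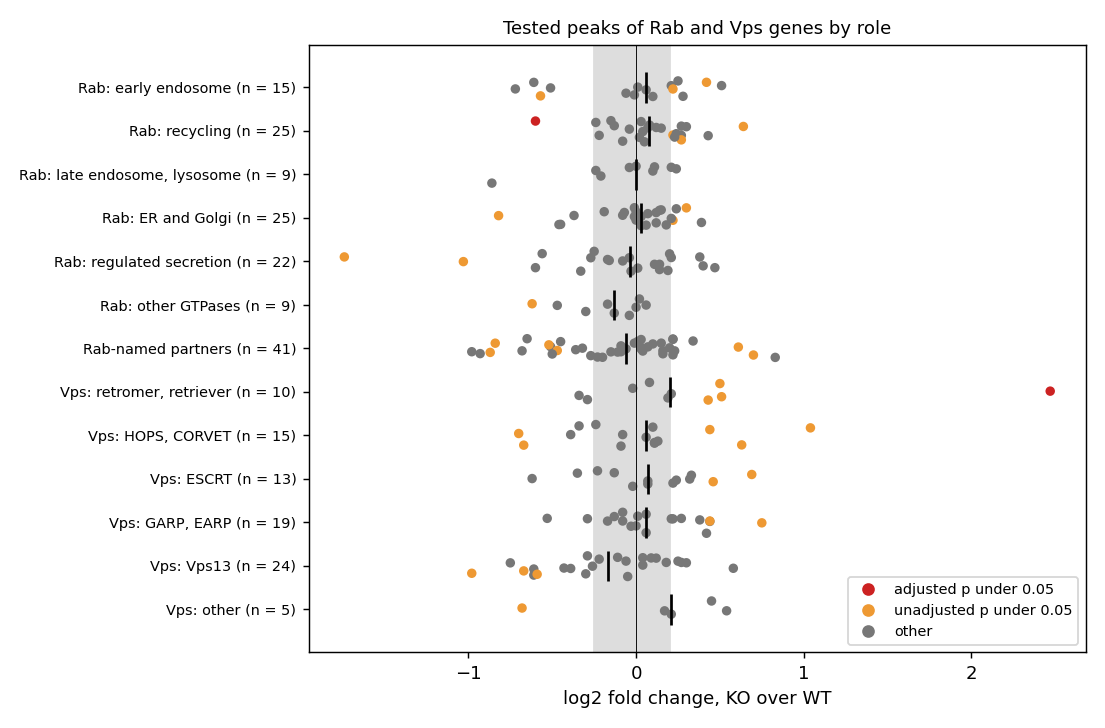
Log2 fold change (KO over WT) of the 232 tested peaks of Rab and Vps genes in rows by role, with the number of peaks in each row and its median as a black tick, and the interquartile range of all tested peaks (-0.25 to 0.20) shaded. The called Rab10 and Vps26c peaks are red, and the 10 retromer and retriever peaks include 4 with an unadjusted p under 0.05, all to the right of 0. Over all tested peaks 9.47% had such a p.

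Among the 86 tested Vps peaks, 47 had a log2 fold change above 0 and 39 below, with a median of 0.058. That median was 0.001 without WT replicate 1, -0.002 without WT replicate 4 and 0.008 without KO replicate 3, so it rests on single libraries. An unadjusted p under 0.05 was reached by 17 (19.8%), 11 higher and 6 lower, against 9.47% of all tested peaks. The groups did not overlap at 11 (12.8%), 6 with KO higher and 5 with KO lower, against 9.36%. At gene ends 20 of 37 Vps peaks were above 0 (54.1%), and 6 had an unadjusted p under 0.05 in edgeR (4 higher), with groups that did not overlap at 4 (10.8%). Over all gene-end peaks these shares were 56.4% above 0, 8.68% with such a p and 9.09% without overlap. At the Vps gene ends edgeR, DESeq2 and limma-voom each called 0. Chromosome 16 carried 10 of the tested Vps peaks, at Vps8 and Vps26c, and 4 of these 10 had an unadjusted p under 0.05.

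In retromer and retriever, 7 of 10 tested peaks were above 0 (median 0.201), and all 4 with an unadjusted p under 0.05 were higher in KO, the called Vps26c peak among them. Over all tested peaks 9.47% had such a p. The class holds few peaks, at 6 genes, and its direction as a whole was not tested. Retromer consists of Vps26 (a or b), Vps29 and Vps35, and retriever of Vps26c, Vps29 and Vps35l. The Vps26a start-site peak (chromosome 10, 62486664 to 62487577) had 39.7, 30.5, 32.5 and 33.2 CPM in WT and 46.8, 49.9 and 50.2 in KO. The lowest KO library exceeded the highest WT library, at a log2 fold change of 0.51 (SE 0.18, edgeR adjusted p = 0.299). Vps29, the subunit shared by the complexes, had 26.2, 27.1, 24.1 and 31.6 CPM in WT and 31.4, 29.1 and 50.7 in KO at its start-site peak (chromosome 5, 122354095 to 122354611), which also touched Rad9b. KO replicate 3 was the highest library, and the groups overlapped (log2 fold change 0.43, SE 0.21, edgeR adjusted p = 0.507).

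Vps35 encodes the scaffold of retromer. Its gene-end peak (chromosome 8, 85299360 to 85300040), which also touched Orc6, had 54.3, 44.7, 32.5 and 48.5 CPM in WT and 47.4, 59.4 and 51.8 in KO, with overlapping groups (log2 fold change 0.21, SE 0.17, edgeR adjusted p = 0.754). Vps35l, the retriever counterpart, had 2 neighbouring gene-end peaks. The one from 118740475 to 118740804 on chromosome 7 had 26.6, 23.7, 20.5 and 22.1 CPM in WT and 37.9, 29.1 and 30.7 in KO. All KO libraries were above all WT libraries there (log2 fold change 0.50, SE 0.21, edgeR adjusted p = 0.437). The peak next to it, from 118740004 to 118740326, had 31.5, 27.8, 40.9 and 24.2 CPM in WT and 41.0, 21.5 and 25.9 in KO, with a log2 fold change of -0.02. It is named for contrast and was chosen after its values were seen. Apart from the called peak, no retromer or retriever peak passed the test.

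**Figure D4:**
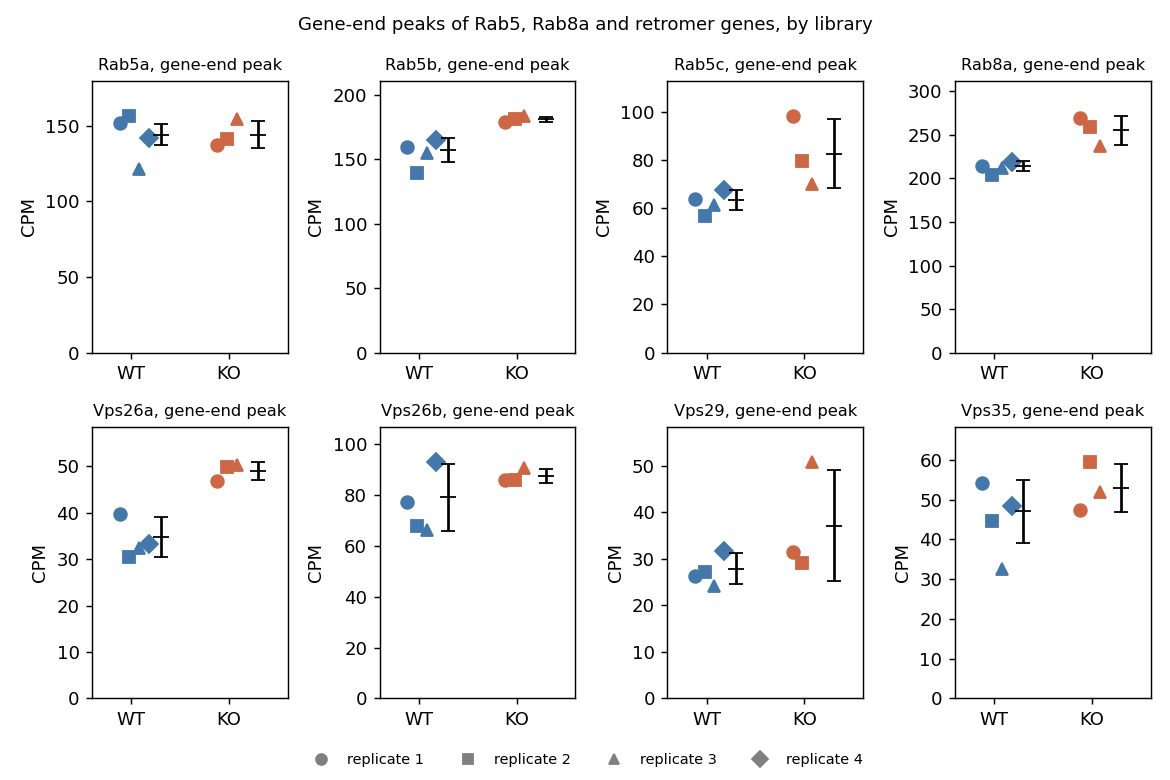
CPM at the strongest tested gene-end peak of Rab5a, Rab5b, Rab5c, Rab8a, Vps26a, Vps26b, Vps29 and Vps35, with 1 point per library (marker shape gives the replicate number) and the mean ± SD (n = 3, WT replicates 2 and 3 averaged) as black bars. The KO libraries lie above all WT libraries at Rab5b, Rab5c, Rab8a and Vps26a, and the groups overlap at Rab5a, Vps26b, Vps29 and Vps35.

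HOPS and CORVET share a core and bind Rab7 and Rab5 respectively through their own subunits. Of 15 tested peaks of their genes and of Vps33b, 8 were above 0 (median 0.058). An unadjusted p under 0.05 was reached by 5, against 9.47% of all tested peaks. The 3 higher ones were all at Vps8, and the lower ones at Vps39 and Vps33b. Vps8 is the CORVET subunit that binds Rab5. Its peak from 21590786 to 21591153 on chromosome 16, within the gene, had 19.4, 21.7, 23.5 and 19.0 CPM in WT and 32.7, 29.7 and 34.0 in KO. All KO libraries were above all WT libraries (log2 fold change 0.63, SE 0.22, edgeR adjusted p = 0.313). The start-site peak of Vps8 (21422940 to 21423594) had 73.6, 68.4, 66.2 and 74.8 CPM in WT and 64.1, 72.0 and 65.8 in KO, with overlap (log2 fold change -0.08).

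The HOPS subunit Vps39, which binds Rab7, had 14.5, 22.3, 18.1 and 17.9 CPM in WT and 13.6, 12.6 and 6.47 in KO at its gene-end peak (chromosome 2, 120352962 to 120353312). The groups did not overlap, with KO lower (log2 fold change -0.70, SE 0.30, edgeR adjusted p = 0.445). Vps41, the other subunit particular to HOPS, had overlapping groups at its start-site peak (chromosome 13, 18717108 to 18717459), with 54.3, 40.6, 39.7 and 50.6 CPM in WT and 46.2, 55.6 and 50.7 in KO (log2 fold change 0.11, edgeR adjusted p = 0.89). A peak 1612 bp from Vps18, a core subunit (chromosome 2, 119300065 to 119300522), had 28.6, 29.8, 27.7 and 30.0 CPM in WT and 22.2, 16.4 and 27.5 in KO. These groups did not overlap, by 27.5 against 27.7 CPM at the closest (log2 fold change -0.39, edgeR adjusted p = 0.612). Vps33b, a partner of Vipas39, had 16.8 ± 3.81 CPM in WT and 12.0, 2.53 and 16.2 CPM in KO at a gene-end peak (chromosome 7, 80269418 to 80269819, log2 fold change -0.67, edgeR adjusted p = 0.516), and Vps33a 15.1 ± 5.19 in WT and 16.1 ± 4.06 in KO (SD, n = 3 each).

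Of 13 tested peaks of ESCRT genes 8 were above 0 (median 0.069), and both with an unadjusted p under 0.05 were higher and belonged to Vps37b, a subunit of ESCRT-I. A peak 3478 bp from Vps37b (chromosome 5, 124035738 to 124036217) had 26.6, 35.9, 36.1 and 27.9 CPM in WT and 52.1, 34.8 and 40.5 in KO. KO replicate 2 lay inside the WT range (log2 fold change 0.46, SE 0.19, edgeR adjusted p = 0.413). Vps37a, another ESCRT-I subunit, had 85.7, 83.9, 81.9 and 74.3 CPM in WT and 88.1, 85.9 and 81.4 in KO at a gene-end peak that also touched Cnot7 (chromosome 8, 40510857 to 40512373). Vps4b, an ATPase that takes ESCRT-III apart, had 54.3, 58.2, 55.4 and 55.9 CPM in WT and 57.3, 61.9 and 79.8 in KO (chromosome 1, 106796551 to 106796916, log2 fold change 0.24, edgeR adjusted p = 0.643). The groups overlapped at both genes.

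For the GARP and EARP tethers, 11 of 19 tested peaks were above 0 (median 0.058), and both with an unadjusted p under 0.05 lay at Vps54, the subunit particular to GARP. A peak within Vps54 (chromosome 11, 21303556 to 21303999) had 13.6, 16.2, 18.1 and 16.9 CPM in WT and 28.3, 27.8 and 24.8 in KO. The groups did not overlap, with KO higher, at a log2 fold change of 0.75 (SE 0.25, edgeR adjusted p = 0.275). Vps50, the subunit particular to EARP, had 77.1 ± 6.31 CPM in WT and 71.9 ± 9.12 in KO at its start-site peak (SD, n = 3 each), which differed by less than the spread between replicates.

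The Vps13 genes encode lipid transfer proteins at contacts between organelles, mitochondria included. Of their 24 tested peaks 9 were above 0 (median -0.163), and all 3 with an unadjusted p under 0.05 were lower and lay at Vps13d, which is known to act in mitochondrial size and clearance. The Vps13d peak from 144986025 to 144986494 on chromosome 4, within the gene, had 44.1, 37.9, 42.2 and 29.5 CPM in WT and 27.7, 15.2 and 27.5 in KO. All KO libraries were below all WT libraries (log2 fold change -0.67, SE 0.21, edgeR adjusted p = 0.256). A peak in Vps13b (chromosome 15, 35650001 to 35650395) had 19.4, 13.5, 20.5 and 11.6 CPM in WT and 11.1, 7.58 and 12.9 in KO, and KO replicate 3 lay inside the WT range (log2 fold change -0.61, SE 0.31, edgeR adjusted p = 0.544). The strongest peaks of Vps13a and Vps13c had overlapping groups, at log2 fold changes of 0.12 and 0.04.

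Of the remaining Vps genes, Vps45 encodes a regulator of SNARE proteins in endosomal fusion, and Vps72 a histone chaperone of chromatin remodelling complexes, not a traffic protein. A peak 9970 bp from Vps45 (chromosome 3, 96069631 to 96070037) had 12.6, 10.8, 12.0 and 26.3 CPM in WT and 12.0, 7.58 and 8.63 in KO (log2 fold change -0.68, SE 0.33, edgeR adjusted p = 0.511). WT replicate 4 stood apart from the other WT libraries. The gene-end peak of Vps72 had 13.2 ± 6.86 CPM in WT and 15.2 ± 1.16 in KO (SD, n = 3 each).

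The partners of these proteins gave no call. Lists of Rab regulators (250 tested peaks at 54 genes, such as the Tbc1d GTPase-activating proteins), Rab effectors (99 at 35, such as Eea1), and sorting nexins with the WASH and Commander complexes (139 at 38) had 0 called peaks in edgeR. The same held for ESCRT genes without a Vps name (33 at 19), endosomal phosphoinositide enzymes (65 at 17, such as the lipid kinase Pik3c3) and endosomal SNARE and exocyst genes (84 at 23). DESeq2 and limma-voom also called 0 in each. An unadjusted p under 0.05 in edgeR was reached by 20, 7, 13, 5, 5 and 10 of their peaks in that order. The numbers above 0 were 141, 48, 69, 20, 34 and 34, and the median log2 fold changes were 0.042, -0.034, -0.003, 0.126, 0.034 and -0.127. The background was 0.0867% of tested peaks called, 9.47% with such a p and a median of -0.001. At that share of calls, 0 calls in lists of this size does not set them apart.

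Summed over all their peaks, tested or not, Rab genes had 4940, 5020, 4790 and 4877 CPM in WT replicates 1 to 4 and 5013, 5174 and 5036 in KO replicates 1 to 3. Vps genes had 1953, 2016, 2004 and 2082 CPM in WT and 2114, 2065 and 2138 in KO. The groups overlapped in both families, since WT replicate 2 exceeded KO replicate 1 for Rab genes and WT replicate 4 exceeded KO replicate 2 for Vps genes.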

How the data were processed

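The 4 WT and 3 Opa1 KO ATAC-seq libraries came from sorted spleen Treg cells of chimeric mice. The authors deposited 1 table of whole counts per peak and library on mm10. Per the submitters' processing notes, Trimmomatic 0.36, BWA 0.7.16, SAMtools 1.9, Picard 2.9.4, MACS2 2.1.1 and bedtools 2.25.0 were used. Their settings, the shift of reads for transposase insertion, the merging of peaks and whether starts count from 0 or 1 are not given in the sources used, so positions are as deposited. Between 78.0% and 86.3% of the counts in each library were even, the mark of counting both mates of read pairs, so counts overstate the number of fragments, and halved counts were an alternative.

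The deposited counts were tested with edgeR 4.0.16 in R 4.3.3 (robust quasi-likelihood fit, TMM scaling, genotype as the only term, Benjamini-Hochberg adjustment over all tested peaks, threshold 0.05), after filterByExpr with a minimum count of 10 and a minimum total of 15 had removed 12172 of 50213 peaks. CPM values use the TMM-scaled library totals. DESeq2 1.42.0 and limma-voom (limma 3.58.1) were alternatives. The script was tested on simulated data. Log2 fold changes are KO over WT. Peaks assigned to a gene by distance may act on another, and a peak touching 2 genes is named with both. A gene-end peak lies within 1 kb of either end of its gene, and a start-site peak touches a RefSeq start-site window or start. Where both groups lie under the floor of 6 counts (3 read pairs), no fold is given. p-values measure the spread between libraries labelled as replicates, with WT replicates 2 and 3 kept apart. The labels used do not say that each library is a separate mouse.

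WT replicates 2 and 3 differed less than any other pair of libraries of the same genotype (chi-square per degree of freedom 1.009, against 1.022 for the next pair). Over the 11332 peaks with a mean of at least 50 counts they differed beyond counting noise (1.024). Pairs across genotypes were not compared. Named peaks were the called peaks, the 6 higher and 6 lower peaks with the smallest p in each family (1 per gene), the strongest peak of each role class, the strongest tested peak of 18 chosen genes, and all tested peaks of genes with a call. The members, lists and role classes were chosen with earlier results of these data known, and the motifs after the values were seen. Figures were drawn with matplotlib 3.10.9. The result of 1 marker list is not reported here.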

Additional observations from a re-analysis of the deposited data

Results flagged for a closer look

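At 4 of the named peaks 1 WT library stood apart from the other 3 by Dixon's test, which chance does in about 1 in 20 groups. WT replicate 4 was low at the start-site peak of Rab3a (42.2 CPM, against 65.0 to 66.3) and high at the peak near Vps45 (26.3 CPM, against 10.8 to 12.6). WT replicate 1 was high at the peak outside Rab6b (15.0 CPM, against 10.5 to 10.8). WT replicate 2 was high at the start-site peak of Vps26c (121 CPM, against 102 to 105). None of these peaks was called.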

How the results depend on the processing

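No Rab or Vps peak other than those of Rab10 and Vps26c was called under any alternative run. Both were called with DESeq2, limma-voom, library totals only, loess offsets, no filter, a mean count of at least 20, halved counts, and WT replicates 2 and 3 summed. Over 50 named peaks, 771 of 830 alternative values kept their sign and side of the threshold, 6 lost the call and 53 changed sign, all of them at peaks that were not called. The causes of these changes were not tested, except that leaving out chromosome 16 removes the Vps26c peak (0 Vps calls) and keeping only overlapping peaks removes that of Rab10 (0 Rab calls).

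The number of calls over all peaks was 55 with limma-voom, 60 where the mean count was at least 20, 84 with halved counts, 14 without chromosome 16, and 15 to 43 when 1 library was left out. Rab calls and Vps calls then ranged from 0 to 1, the Rab median from 0.009 to 0.053 and the Vps median from -0.002 to 0.088. The log2 fold change ranged from -0.72 to -0.48 at the Rab10 peak and from 2.08 to 2.78 at the Vps26c peak.

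Same-numbered WT and KO libraries did not deviate together (correlations -0.0119 to 0.0106). Libraries of the same genotype differed by little more than counting noise, so these correlations cannot show whether same-numbered libraries were paired. With the replicate block there were 13 calls over all peaks and 0 Rab calls, the Rab10 peak stood at -0.55 (adjusted p = 0.139) and Vps26c remained called. The Vps median was then 0.004. Signs turned under the block at Rab37 115153672 (0.05), Rab3ip 116913643 (-0.01), Rab7 (0.06) and Vps13c (-0.15).

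Other turned signs lay near 0. Rab40c stood at 0.02 with limma-voom, 0.01 with no filter and 0.03 with WT replicates 2 and 3 summed. Rab5a stood at -0.00, -0.02, -0.06, -0.02, -0.03 and -0.00 with limma-voom, library totals, loess offsets, a mean count of at least 20, halved counts and the summed replicates. Rab7 stood at 0.03, 0.02, 0.01 and 0.00 with limma-voom, no filter, the summed replicates and no chromosome 16. Rab1a stood at -0.05 with loess offsets and -0.00 with halved counts, and Rab10 3322207 at -0.11 with the summed replicates.

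Leaving out 1 library gave ranges across 0 of -0.12 to 0.34 at Rab10 3279158, -0.11 to 0.65 at Rab10 3283008, -0.32 to 0.96 at Rab10 3322207, -0.02 to 0.09 at Rab1a, -0.32 to 0.07 at Rab37 115153672, -0.18 to 0.02 at Rab3a, -0.02 to 0.21 at Rab3ip 116913643, -0.07 to 0.06 at Rab40c, -0.06 to 0.05 at Rab5a, -0.08 to 0.12 at Rab7, -0.02 to 0.26 at Vps13a, -0.15 to 0.18 at Vps13c, -0.08 to 0.28 at Vps33a, -0.14 to 0.01 at Vps50 and -0.05 to 0.49 at Vps72.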
